A study of Mus musculus with 24 samples.

Results

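Kidneys of 1-month-old male TgUmodC147W mice were set against kidneys of TgUmodwt males of the same age, with 4 mice in each group and 1 array for each mouse. The 8 arrays were chosen by their labelled transgene, sex and age out of 24 arrays in all. All mice were of the FVB strain, RNA came from the whole kidney, and the array was the Illumina MouseWG-6 v2.0 BeadChip. Both lines carry a transgene of mouse Umod with its own promoter fragment and an HA tag, so TgUmodC147W males express a uromodulin with a cysteine-to-tryptophan change and TgUmodwt males express the unchanged protein from a like construct. Each line stands for 1 construct, and the endogenous gene is present in both. TgUmodC147W males are called C147W males below and TgUmodwt males wt males. C147W females and wt females of 1 month (4 arrays each) were used only to place the values of the males.

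Uromodulin is the most abundant protein of normal urine and is made in the kidney's thick ascending limb (TAL), the salt-reabsorbing segment after the loop's bend, where it is folded and cross-linked through disulphide bonds in the endoplasmic reticulum (ER) before it reaches the apical membrane. Mutations that remove or add cysteines in uromodulin cause a dominant tubulointerstitial kidney disease in people. The mouse kidney is also one of the most sexually dimorphic organs outside the gonads: androgens raise a set of proximal tubule enzymes and transporters in males at puberty, and other genes of the same segment are higher in females.

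Signals are given as log2 values after background correction and quantile normalization, on a scale on which the median probe lay at 5.51, the dimmest at 4.58 and the brightest at 16.02. A probe was counted as detected on an array when its detection p, the array's own comparison with negative control beads, was under 0.01, and a probe was tested when at least 1 of the 8 arrays detected it. Detected probes made up 38.5, 38.4, 39.6 and 39.1% of all probes in C147W males and 35.9, 36.1, 35.3 and 36.4% in wt males. The groups did not overlap, and C147W males were higher by 2.98 percentage points (38.9 ± 0.56% in C147W males, 35.9 ± 0.5% in wt males, mean ± SD, n = 4 each, exact two-sided permutation p = 0.0286, the smallest that 4 against 4 allow). Since normalization made the arrays' quantiles equal, the dimmest detected signal goes with the share of detected probes and is not a separate result. It was 6.24 to 6.37 in C147W males and 6.59 to 6.74 in wt males. A signal between these ranges could therefore count as detected in C147W males only. The part of array background in the difference was not tested. The median intensity before normalization was 120.7 to 127.3 in C147W males and 119.9 to 136.7 in wt males. Pearson's r between arrays was 0.9870 to 0.9958 within a group and 0.9637 to 0.9737 between the groups, and the first principal component held 69.1% of the variance with scores of 30.4 to 36.5 in C147W males and -35.5 to -31.1 in wt males. The second component held 10.3% and spread the C147W males, with scores of 14.3, 18.3, -26.7 and -3.3, while wt males lay between -3.1 and 1.4. The probes of Xist, the non-coding RNA of X inactivation, measured 4.76 to 5.66 in C147W males and 4.70 to 5.79 in wt males, as the male label requires. They were also at 4.80 to 5.19 in C147W female replicate 2, against 9.00 to 12.10 in the other C147W females and 9.01 to 12.17 in wt females, while the Y-linked histone demethylase Kdm5d was at 4.85 on that array, so fitted values that rest on C147W females are given with and without it. The ranges of C147W females include it.

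**Figure D1:**
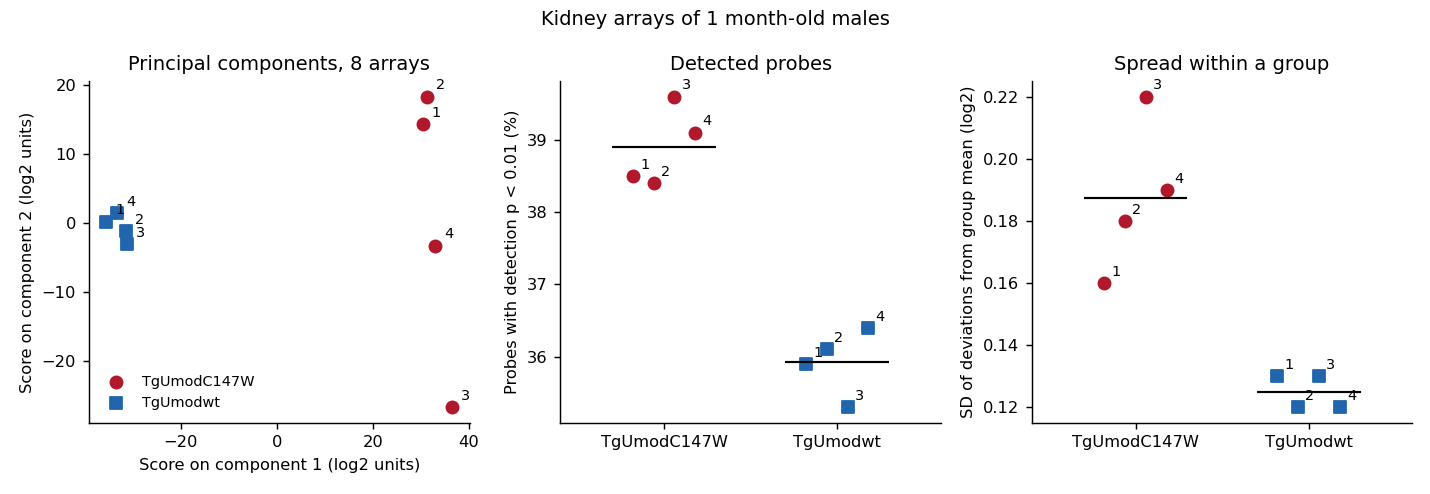
Scores on the first and second principal components are at the left, and the percentage of probes detected on each array is in the middle. The SD of each array's deviations from its group mean is at the right, in log2 units. Points are the 4 C147W males and the 4 wt males, and lines are means. The C147W males lie at 38.4 to 39.6% detected probes, all above the wt males at 35.3 to 36.4%, and the groups lie apart on the first component.

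Across the 19026 probes tested, 2495 named genes were up-regulated and 1923 down-regulated in C147W males by at least 1 probe (limma, Benjamini-Hochberg adjusted p under 0.05 over all probes), with 32 genes in both counts. Under median scaling the counts were 3138 and 1277 (71.1% upward, against 56.5%). The counts with a fold change over 2 were 220 up and 234 down, but 82 and 152 with the authors' normalized values and 83 and 153 without background correction. Counts of gene groups below use the brightest probe of each gene, for which 2221 of 10129 genes (21.9%) were up-regulated and 1564 (15.4%) down-regulated, 37.4% in either direction. By that probe 1.96% of genes were up-regulated and 1.99% down-regulated over 2-fold, and the arrays of the groups did not overlap for 37.6%. The counts of each list below are to be read against these shares. The median log2 fold change over all genes was 0.04 and the median size 0.21. Beyond 4-fold the falls outnumbered the rises, with 62 genes down-regulated and 19 up-regulated. Where a probe was detected on no array of one group, the fold is written "at least", and was taken against the higher of the probe's own signal and the dimmest detected signal of each such array (6.24 to 6.37 in C147W males, 6.59 to 6.74 in wt males).

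Umod lay near the top of the scale in both lines. The brighter Umod probe measured 15.91, 15.84, 15.89 and 15.86 in C147W males and 15.68, 15.79, 15.80 and 15.76 in wt males, a log2 fold change of 0.12 ± 0.07 (SE) that did not pass the test (adjusted p = 0.219). The dimmer probe measured 15.61 to 15.78 in C147W males and 15.28 to 15.56 in wt males, and its change of 0.27 ± 0.09 passed (adjusted p = 0.0337). Both probes lay close to the top of the scale in every mouse, and saturation was not tested. The probes do not tell the transgene from the endogenous gene.

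Other TAL genes were higher in C147W males. Of 16 expressed TAL genes 11 were up-regulated (68.8%), none was down-regulated, and their median log2 fold change was 0.51. Cldn16, a claudin that lets magnesium and calcium pass between TAL cells, measured 11.64, 11.32, 11.63 and 11.42 in C147W males and 10.66, 10.70, 10.79 and 10.42 in wt males, with no overlap (1.82-fold higher, adjusted p = 0.000147). Its partner Cldn19 was 1.57-fold higher (9.51 ± 0.19 in C147W males, 8.86 ± 0.15 in wt males, mean ± SD, n = 4 each, adjusted p = 0.00118). Slc12a1, the loop diuretic-sensitive sodium-potassium-chloride cotransporter, measured 14.80 to 15.11 in C147W males and 14.28 to 14.52 in wt males (1.44-fold higher, adjusted p = 0.00138), and its 5 expressed probes were all up-regulated. Bsnd, the barttin subunit of kidney chloride channels, and Ppp1r1a, a phosphatase inhibitor of the same segment, were 1.52-fold (adjusted p = 0.000339) and 1.55-fold (adjusted p = 0.000177) higher. In whole-kidney RNA a change in the number of cells of a type and a change in RNA per cell cannot be told apart, here and in all results that follow.

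In the segments downstream most called genes were up-regulated too. Of 17 expressed genes of the distal tubule and principal cells 11 were up-regulated and none down-regulated (median 0.35). Slc8a1, the sodium-calcium exchanger of the distal convoluted and connecting tubule, was 1.77-fold higher (11.26 ± 0.13 in C147W males, 10.44 ± 0.05 in wt males, adjusted p = 4.29e-05). Scnn1g, a subunit of the epithelial sodium channel, and Aqp2, the vasopressin-regulated water channel, were each 1.56-fold higher (adjusted p = 0.000484 and 0.00332). Among 13 intercalated cell genes 4 were up-regulated and 1 down-regulated (median 0.21), with Slc26a4 (pendrin) 1.48-fold and Slc4a9, an anion exchanger, 1.44-fold higher (adjusted p = 0.00134 and 0.0128). Endothelial genes moved together by small amounts: 11 of 14 were up-regulated and none down-regulated (median 0.41), led by Vwf (von Willebrand factor, 1.51-fold, adjusted p = 0.0024) and Ehd3, an endocytic protein of glomerular endothelium (1.49-fold, adjusted p = 0.00493). Of 7 podocyte genes only Tcf21, a transcription factor also found in kidney stroma (10.89 ± 0.04 in C147W males, 9.87 ± 0.17 in wt males, 2.04-fold higher, adjusted p = 1.65e-05), and Synpo (synaptopodin, 1.24-fold, adjusted p = 0.0134) passed the test.

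Several of the largest changes of the comparison lay in genes known to differ between male and female mouse kidneys. All 13 expressed members of a list of androgen-raised kidney genes were down-regulated in C147W males, with a median log2 fold change of -1.98, and 11 of them fell over 2-fold. Acsm3, a mitochondrial medium-chain acyl-CoA synthetase, measured 8.42, 8.61, 7.53 and 7.47 in C147W males and 14.82, 14.76, 14.74 and 14.87 in wt males. It was among the brightest genes of every wt male and fell by more than 6 log2 units in every C147W male (111-fold lower, log2 fold change -6.79 ± 0.23, adjusted p = 1.46e-08). Cyp2j13, a fatty acid epoxygenase, measured 5.37, 5.27, 5.55 and 6.42 in C147W males and 12.18, 11.95, 11.60 and 12.03 in wt males (adjusted p = 1.58e-08). It was detected in only 1 of the 4 C147W males, and with the other 3 at their dimmest detected signal it was 48.2-fold lower. Cyp4a12a, an arachidonic acid hydroxylase, measured 6.96, 6.68, 6.20 and 6.44 in C147W males and 11.71, 11.25, 11.18 and 11.62 in wt males (29.2-fold lower, adjusted p = 1.58e-08). Its probe may also read the near-identical Cyp4a12b. Cyp7b1, an oxysterol and steroid hydroxylase, measured 7.82, 7.42, 7.81 and 8.05 in C147W males and 12.20, 11.85, 10.20 and 12.10 in wt males (14.1-fold lower, adjusted p = 2.53e-05), so that wt male replicate 3 lay lower than the other wt males and still above all C147W males. Cyp2e1, an ethanol-inducible P450, measured 10.15, 10.16, 11.79 and 11.47 in C147W males and 14.42 to 14.71 in wt males (12.8-fold lower, adjusted p = 1.55e-05). The classic androgen targets of mouse kidney fell by less: Odc1, the rate-limiting enzyme of polyamine synthesis, was 2.44-fold lower (adjusted p = 3.82e-05), Kap, the kidney androgen-regulated protein, 1.46-fold lower (adjusted p = 0.000914), and Gusb, beta-glucuronidase, 1.23-fold lower (adjusted p = 0.00956). Kap lay near the top of the scale in wt males (15.33 to 15.50), and saturation was not tested for it either.

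Of 9 expressed genes on a list of female-high kidney genes 6 were up-regulated and 3 down-regulated. Serpina6, corticosteroid-binding globulin, measured 15.02, 14.92, 15.26 and 15.29 in C147W males and 9.43, 9.87, 10.17 and 9.77 in wt males. This was the largest rise of the comparison (39.8-fold higher, log2 fold change 5.31 ± 0.15, adjusted p = 3.15e-09) and brought the gene near the top of the scale in all C147W males. Ugt1a2, a glucuronosyltransferase, measured 11.58, 11.72, 11.57 and 11.67 in C147W males and 7.20, 7.34, 7.44 and 7.23 in wt males (20.2-fold higher, adjusted p = 1.83e-10). A probe named for Ugt1a5 gave like values (10.91 to 11.03 in C147W males, 6.45 to 6.83 in wt males, 19.7-fold higher, adjusted p = 4.04e-10). Ugt1a transcripts share their last exons, so these probes may not be independent. Abcc3, a basolateral exporter of conjugates, measured 9.79, 9.48, 10.12 and 10.22 in C147W males and 6.25, 6.53, 6.50 and 6.51 in wt males, which did not detect it (at least 9.51-fold higher, adjusted p = 6.43e-08). Hdc, the enzyme that makes histamine, measured 8.87, 9.10, 9.37 and 10.22 in C147W males and 6.15, 6.18, 6.37 and 6.21 in wt males, again without detection in the wt group (at least 6.66-fold higher, adjusted p = 3.59e-06). The members that fell were Cyp2a4 (9.68-fold lower, adjusted p = 4.23e-07), a steroid hydroxylase, its close copy Cyp2a5 (8.55-fold lower, adjusted p = 3.4e-08), and Slc22a7, an organic anion transporter (5.24-fold lower, adjusted p = 1.41e-06). These 3 genes did not pass the test between wt males and wt females on these arrays (log2 male minus female 0.25, 0.22 and 0.56, adjusted p = 0.741, 0.698 and 0.0844).

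The females of 1 month gave the scale for these values. The comparisons of sexes below share the male arrays with the comparison of genotypes, so their values are given side by side. Calls of the same gene in several of them are not independent, and the gene lists were written with earlier results known. In wt mice 2188 of 10270 genes differed between males and females (21.3%; 21.5% in the fit without C147W female replicate 2). In C147W mice 25 genes did (0.243%), and 18 without that replicate (0.176%). The second count depended on single arrays: it was 100 without C147W male replicate 4, 49 without C147W female replicate 4, 10 without C147W male replicate 3 or C147W female replicate 3, and 12 to 31 with any other single array left out. The difference between the genotype effects of males and females passed the test for 791 genes (7.7%), 742 without C147W female replicate 2 (7.24%), with 405 positive and 386 negative values over all arrays. Among the genes named here no call of that test was lost without the replicate, and Slc22a30, Slc22a28, Aass, Shmt2, Cyp24a1, Adipoq and Mrap became called.

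All 13 androgen-raised genes were called in that test, with and without the replicate, and all 13 were higher in wt males than in wt females (median log2 difference 1.78), whereas none passed between C147W males and C147W females (median 0.13, 0.17 without the replicate). The genotype effect in males, the genotype-by-sex test and the wt sex difference all rest on the wt males, so these counts are not independent. Cyp2j13 measured 4.96 to 5.27 in C147W females and 5.01 to 5.55 in wt females, which overlap each other, with C147W males at 5.27 to 6.42, and the genotype-by-sex value of -6.08 was the most negative of all genes (adjusted p = 5.41e-10, and -6.09 with adjusted p = 4.46e-09 without the replicate). Acsm3 measured 6.25 to 8.13 in C147W females and 8.44 to 9.16 in wt females, a genotype effect in females of -1.60 (adjusted p = 0.00175, and -1.70 with adjusted p = 0.00338 without the replicate), and the genotype-by-sex value was -5.19 (adjusted p = 1.34e-06, and -5.09 with adjusted p = 5.8e-06 without it). Cyp4a12a measured 6.16 to 7.35 in C147W females and 6.57 to 7.05 in wt females, and its 4 C147W males at 6.20 to 6.96 lay among them. Cyp7b1 measured 7.95 to 8.19 in C147W females and 7.52 to 8.07 in wt females (genotype-by-sex value -4.10, adjusted p = 1.4e-05, and -4.04 with adjusted p = 5.39e-05 without the replicate). The corresponding values of Odc1, Kap and Gusb were -0.71, -0.59 and -0.43 (adjusted p = 0.0182, 0.0204 and 0.027), and -0.72, -0.64 and -0.41 without the replicate (adjusted p = 0.0283, 0.0154 and 0.0494).

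**Figure D2:**
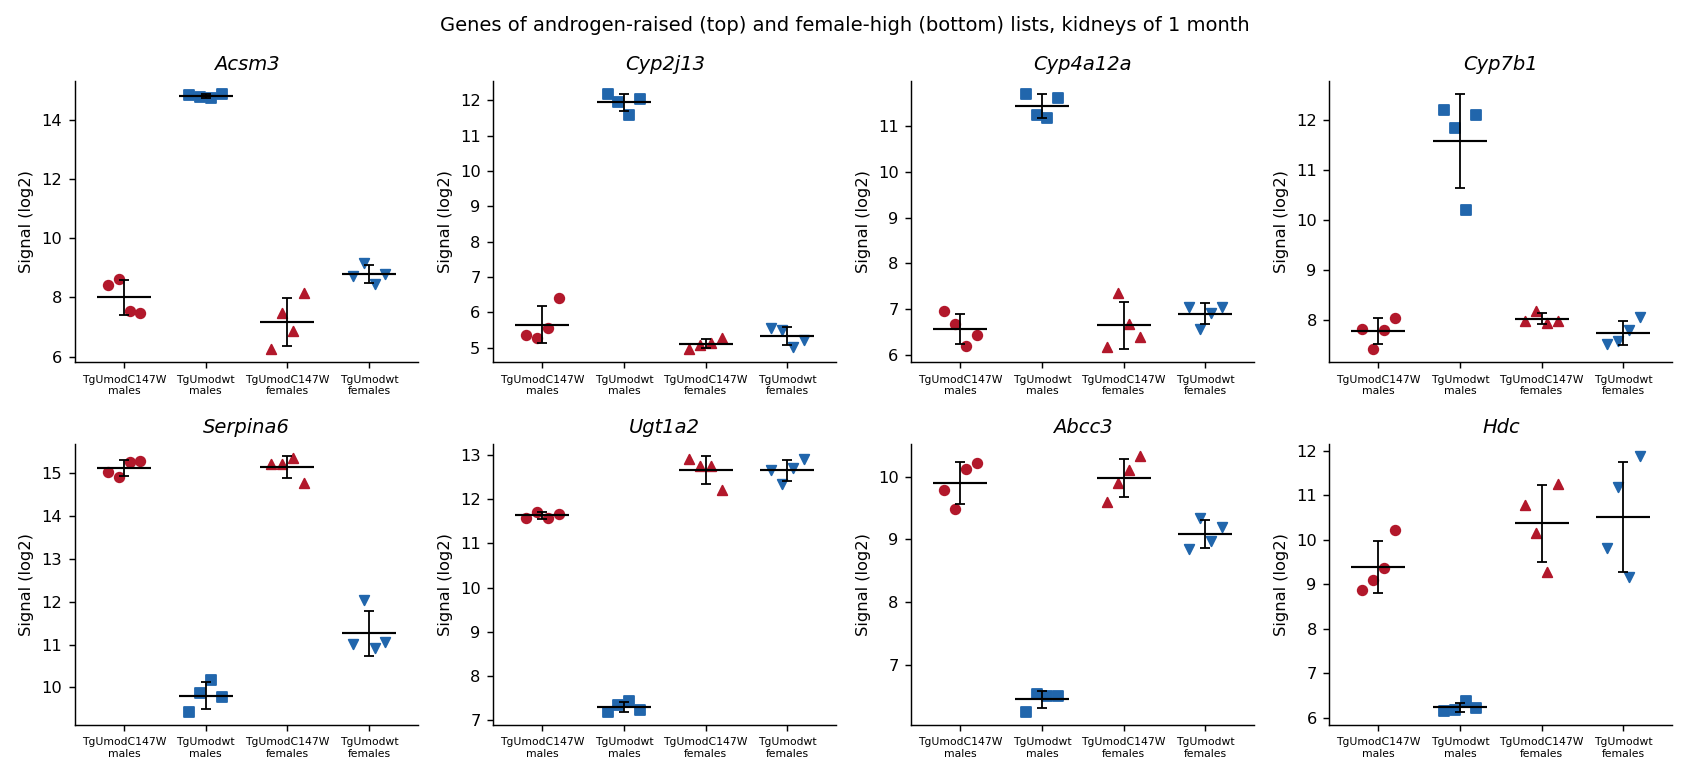
Log2 signal of 4 androgen-raised genes (Acsm3, Cyp2j13, Cyp4a12a, Cyp7b1) and 4 female-high genes (Serpina6, Ugt1a2, Abcc3, Hdc) in C147W males, wt males, C147W females and wt females of 1 month; points are mice, lines are means and bars are the SD (n = 4 mice each). In each of the 4 androgen-raised genes wt males stand alone at the top, at 14.74 to 14.87 for Acsm3 against 7.47 to 8.61 in C147W males.

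Female-high genes showed the mirror image for 6 of the 9 members, which were called between wt males and wt females, while Ugt1a2 alone was called between C147W males and C147W females, at -1.02 log2 units (adjusted p = 0.0024, and -0.99 with adjusted p = 0.00878 without replicate 2). Ugt1a2 measured 12.20 to 12.91 in C147W females and 12.34 to 12.91 in wt females, so C147W males at 11.57 to 11.72 were below both and wt males at 7.20 to 7.44 far below (genotype-by-sex value 4.34, adjusted p = 2.92e-10, and 4.37 with adjusted p = 2.06e-09 without replicate 2). Hdc measured 9.27 to 11.26 in C147W females and 9.17 to 11.87 in wt females (genotype-by-sex value 3.31, adjusted p = 0.00747, and 3.24 with adjusted p = 0.0153 without replicate 2). Abcc3 measured 9.59 to 10.32 in C147W females and 8.84 to 9.34 in wt females (genotype-by-sex value 2.56, adjusted p = 3e-06, and 2.54 with adjusted p = 1.35e-05 without replicate 2). Serpina6 differed from these in that it was also higher in C147W females (14.77 to 15.35) than in wt females (10.92 to 12.05), a genotype effect in females of 3.87 (adjusted p = 1.02e-08, and 3.85 without replicate 2), and its genotype-by-sex value was 1.44 (adjusted p = 0.00787, and 1.46 with adjusted p = 0.0129 without it). Cyp2a4, Cyp2a5 and Slc22a7, which fell in males, also fell in females (-2.87, -2.47 and -1.60 without replicate 2, adjusted p = 0.000783, 0.000154 and 0.000243). Their genotype-by-sex values were not called (-0.40, -0.63 and -0.79 without replicate 2, adjusted p = 0.767, 0.455 and 0.151). These calls were the same with all arrays. The most positive value among the genes tested, 4.69 (adjusted p = 4.53e-07, and 4.60 with adjusted p = 2.14e-06 without replicate 2), belonged to Ly6f, a lymphocyte antigen 6 family gene whose probe did not pass the detection filter over the 8 males. Its mean log2 intensity was 5.64 ± 0.63 in C147W females and 10.76 ± 0.43 in wt females, and 5.65 ± 0.40 in C147W males and 6.08 ± 0.09 in wt males (SD, n = 4 each).

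The genes that still separated C147W males from C147W females were few and included genes of the sex chromosomes. The Y-linked Kdm5d measured 7.50, 6.45, 7.09 and 7.45 in C147W males and 4.85 to 5.00 in C147W females (log2 difference 2.22, adjusted p = 2.54e-06, and 2.20 with adjusted p = 1.09e-05 without replicate 2), close to the 2.27 of wt mice. A further 5 genes, of the X chromosome, were higher in males in both genotypes: Cldn34c1, a claudin family gene, by 2.40 log2 units in C147W mice (adjusted p = 4.88e-07), Arhgap6, a GTPase-activating protein, by 0.80 (adjusted p = 0.00021), Hccs, the holocytochrome c synthase, by 0.75 (adjusted p = 0.00657), Prps2, a phosphoribosyl pyrophosphate synthetase, by 0.68 (adjusted p = 0.0195), and Msl3, a chromatin protein, by 0.67 (adjusted p = 0.00388). Without replicate 2 these differences were 2.42, 0.82, 0.77, 0.61 and 0.64 in the same order of genes (adjusted p = 1.41e-06, 0.000529, 0.0118, 0.0483 and 0.0123). Cldn34c1 was 1.53-fold lower in C147W males than in wt males (adjusted p = 0.0302), a call lost in 7 of 19 other fits. Of the others, Arhgap6, Hccs, Prps2 and Msl3 did not pass the test between C147W and wt males, with log2 fold changes of -0.13, 0.03, -0.02 and -0.07. The autosomal genes Serpinf2 and Ces1e kept a sex difference and also fell in C147W males. Serpinf2, alpha-2-antiplasmin, was 1.46 log2 units higher in C147W males than in C147W females (adjusted p = 0.000976, and 1.34 with adjusted p = 0.00258 without replicate 2) and 2.59-fold lower in C147W males than in wt males (adjusted p = 8.43e-06). Ces1e, a carboxylesterase, was 0.94 units higher in C147W males than in C147W females (adjusted p = 0.0173, and 0.84 with adjusted p = 0.0387 without replicate 2) and 4.23-fold lower in C147W than in wt males (adjusted p = 3.4e-08).

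The RefSeq promoters (assembly GRCm38.p6, 250 bases before to 50 bases after a start site) were searched on both strands for TGTTCT, the half-site of steroid hormone receptor elements, since the androgen-raised genes moved together. It was found in 1 of the 9 androgen-raised genes with a promoter in the table (11.1%), against 15.1% of the 8211 tested genes with one. Of the 4 female-high genes with one, 2 had a match (50%), a share of very few genes. The match among the androgen-raised genes began at position -235 from the start of Adh1, alcohol dehydrogenase, in the window chr3:138277335-138277634 on the plus strand, and is given with the half-site in capitals.
Adh1 half-site: ttcaggttTGTTCTgtaggtaa
Adh1 itself had a log2 fold change of -1.50 (adjusted p = 8.9e-06). No match in these windows says nothing about receptor binding elsewhere.

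Among the other largest falls, some genes differed by sex in wt mice and some did not. Inmt, an indole and thioether methyltransferase, measured 10.88, 10.73, 10.97 and 10.29 in C147W males and 14.94, 15.21, 15.03 and 14.90 in wt males (19.7-fold lower, adjusted p = 1.15e-08), and its level in wt females was 9.54 to 10.45. Gstp3, a glutathione transferase, was detected in only C147W male replicate 3, at 5.19, 5.14, 6.94 and 5.27 in C147W males and 10.05 to 10.29 in wt males (adjusted p = 3.77e-06), and wt females lay at 5.11 to 5.25. With the undetected arrays at their dimmest detected signal Gstp3 was 12.5-fold lower. Ugt2b36, another glucuronosyltransferase, was 16.3-fold lower (6.76 ± 0.39 in C147W males, 10.79 ± 0.20 in wt males, adjusted p = 6.65e-08). Sec14l3, a lipid-binding protein, did not pass the test between the wt sexes (log2 difference -0.54, adjusted p = 0.443). It measured 4.77 to 4.92 in C147W males, none of which detected it, and 10.40, 10.00, 9.31 and 10.15 in wt males (at least 12.5-fold lower, adjusted p = 1.8e-08), with 4.79 to 6.84 in C147W females and 9.68 to 11.97 in wt females. Its genotype-by-sex value was 0.03 (adjusted p = 0.984), with log2 fold changes of -5.12 in males and -5.15 in females (genotype-by-sex value -0.09 and -5.03 in females without replicate 2). Cyp2d9, a steroid hydroxylase, was 33.6-fold lower (7.76, 7.44, 6.59 and 5.90 in C147W males, 11.93 to 12.05 in wt males, adjusted p = 1.12e-06), and Ces1f, a carboxylesterase, 28.4-fold lower (9.07 ± 0.74 in C147W males, 13.90 ± 0.12 in wt males, adjusted p = 7.13e-07). Both also fell in females (-4.11 and -3.53 without replicate 2, adjusted p = 3.14e-06 and 0.00082). Neither was called in the genotype-by-sex test (-0.96 and -1.30 without replicate 2, adjusted p = 0.26 and 0.373). These calls were the same with all arrays. The paralogous transporters Slc22a30 and Slc22a28 were 14.4-fold and 14.3-fold lower (adjusted p = 6.84e-07 and 1.4e-06), and sequence shared between them could make their probes cross-react. The unannotated gene 3110040M04Rik was 21.5-fold lower (adjusted p = 7.62e-06).

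The largest rises beside the female-high genes joined plasma protein, injury and metabolic genes. Serpina10, the protein Z-dependent protease inhibitor, measured 10.39, 10.49, 11.24 and 11.71 in C147W males and 7.42, 6.34, 7.04 and 7.23 in wt males (15.5-fold higher, adjusted p = 4.43e-06). Rdh12, a retinol dehydrogenase, was not detected in wt males (8.80 ± 0.63 in C147W males, 5.59 ± 0.13 in wt males, at least 4.42-fold higher, adjusted p = 5.24e-06). Cyp4a14, a fatty acid hydroxylase induced through PPAR-alpha, measured 13.41 to 13.66 in C147W males and 10.41 to 10.69 in wt males (7.93-fold higher, adjusted p = 6.69e-09), which placed C147W males at the level of C147W females (13.34 to 13.61) and wt females (13.56 to 13.60). Igf2, the fetal insulin-like growth factor, measured 9.36, 9.80, 9.72 and 9.76 in C147W males and 7.75, 7.58, 7.79 and 7.75 in wt males (3.85-fold higher, adjusted p = 4.14e-07), and C147W females at 9.66 to 10.08 were also above wt females at 8.22 to 8.35. Also undetected in wt males were Spon2, a secreted matrix protein of innate immunity (at least 3.59-fold higher, adjusted p = 0.000116), and Clic6, a chloride channel family protein (at least 4.18-fold higher, adjusted p = 1.41e-06).

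In several lists of metabolic genes more members were down-regulated than up-regulated. Of 25 cytochrome P450 genes 14 were down-regulated and 9 up-regulated (median -0.43), so that nearly all moved, in both directions. Of 45 expressed peroxisomal genes 23 were down-regulated (51.1%) and 2 up-regulated (median -0.28). Nudt19, a peroxisomal CoA-degrading enzyme, measured 12.45, 12.68, 12.84 and 12.97 in C147W males and 14.85, 14.67, 14.49 and 14.85 in wt males (3.95-fold lower, adjusted p = 1.11e-06). Pecr, a trans-enoyl-CoA reductase, and Ephx2, the soluble epoxide hydrolase, were 2.89-fold (adjusted p = 8.95e-05) and 2.68-fold lower (adjusted p = 1.79e-06). Slc25a17, the peroxisomal carrier of CoA and other cofactors, measured 7.69, 7.25, 7.53 and 7.66 in C147W males and 8.78, 8.66, 8.86 and 8.82 in wt males (2.37-fold lower, adjusted p = 1.04e-05), and it did not pass the test between wt males and wt females (log2 difference -0.26, adjusted p = 0.0869). The beta-oxidation enzymes Ehhadh and Acox3 were 2.3-fold (adjusted p = 4.9e-05) and 2.07-fold lower (adjusted p = 0.000282). The peroxisomal genes that rose were Hacl1, a 2-hydroxyacyl-CoA lyase (1.93-fold higher, adjusted p = 0.000269), and Hao2, a 2-hydroxyacid oxidase (1.34-fold higher, adjusted p = 0.0177), and both fell in females (genotype-by-sex values 1.80 and 1.32, adjusted p = 6.67e-05 and 0.000104, and 1.72 and 1.26 without replicate 2, adjusted p = 0.00018 and 0.000281).

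Mitochondrial fat oxidation had 12 genes down-regulated and 4 up-regulated of 29, with a median of -0.01. After Acsm3, the falls were led by Acsm2, a related synthetase (3.37-fold lower, adjusted p = 3.59e-06), and Acat1, acetoacetyl-CoA thiolase (3.11-fold lower, adjusted p = 2.63e-06). Pdk4, which shuts pyruvate dehydrogenase when fat is burned, measured 8.58, 8.57, 10.35 and 10.07 in C147W males and 8.49, 7.88, 8.49 and 7.86 in wt males (2.32-fold higher, adjusted p = 0.0286), with replicates 3 and 4 of C147W males well above replicates 1 and 2. Amino acid metabolism was down-regulated in 28 of 57 genes (49.1%) and up-regulated in 6. Cndp2, a dipeptidase, measured 8.74, 8.71, 8.74 and 9.29 in C147W males and 11.44, 11.40, 11.23 and 11.43 in wt males (5.68-fold lower, adjusted p = 2.73e-07). Cbs, cystathionine beta-synthase, was 3.94-fold lower (adjusted p = 3.98e-07), and Aass, which begins lysine breakdown, 3.09-fold lower (adjusted p = 1.92e-05). Kynu, kynureninase, rose (2.57-fold higher, adjusted p = 7e-05), to 9.97 to 10.24 in C147W males beside 8.41 to 9.07 in wt males and 10.38 to 10.82 in wt females.

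Conjugation enzymes went both ways, with 14 of 31 up-regulated and 7 down-regulated. Ugt8a, a ceramide galactosyltransferase, was 5.58-fold lower (adjusted p = 0.000145) and Ugt3a1, an N-acetylglucosamine-using transferase, 4.46-fold lower (12.65 ± 0.09 in C147W males, 14.81 ± 0.10 in wt males, adjusted p = 2.47e-08), while Gsta4, which clears lipid peroxidation products, was 2.48-fold higher (adjusted p = 3.21e-06). Of 13 genes of gluconeogenesis and sugar handling 7 were down-regulated and none up-regulated. They were led by Pck1, the rate-limiting cytosolic enzyme of gluconeogenesis (2.14-fold lower, adjusted p = 0.000506), Aqp7, a glycerol channel (1.64-fold lower, adjusted p = 6.14e-05), Pcx, pyruvate carboxylase (1.5-fold lower, adjusted p = 0.000222), and Slc37a4, the glucose-6-phosphate carrier (1.44-fold lower, adjusted p = 0.00704). Proximal tubule transporters had 11 of 29 down-regulated and 3 up-regulated (median -0.22), with falls in Slc17a3, a urate and phosphate carrier (2.9-fold, adjusted p = 4.56e-05), Slc22a6, the organic anion transporter OAT1 (2.03-fold, adjusted p = 8.02e-06), and Slc22a12, the urate transporter URAT1 (1.6-fold, adjusted p = 0.017). Slc7a8, a neutral amino acid exchanger, rose 1.58-fold (adjusted p = 0.0029), and brush border peptidases were split, with 2 of 8 up-regulated and 4 down-regulated.

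Glycolytic and hypoxia genes numbered 7 up-regulated and 3 down-regulated of 17. Eno2, an enolase, went undetected in wt males (at least 1.61-fold higher, adjusted p = 9.58e-05), and Car9, a carbonic anhydrase induced by hypoxia, was detected in all wt males at 7.16 to 7.34 and in no C147W male, at 5.86 to 6.03 (at least 1.93-fold lower, adjusted p = 8.29e-07). Of 21 sterol and fat synthesis genes 11 were up-regulated and 2 down-regulated (median 0.29). Elovl6, a fatty acid elongase, was 2.98-fold higher (11.01 ± 0.07 in C147W males, 9.43 ± 0.10 in wt males, adjusted p = 2.92e-07) and Fdps, farnesyl diphosphate synthase, 2.41-fold higher (adjusted p = 5.03e-05). Cyp51, the lanosterol demethylase of the same pathway, moved the other way (1.78-fold lower, adjusted p = 3.24e-05).

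**Figure D3:**
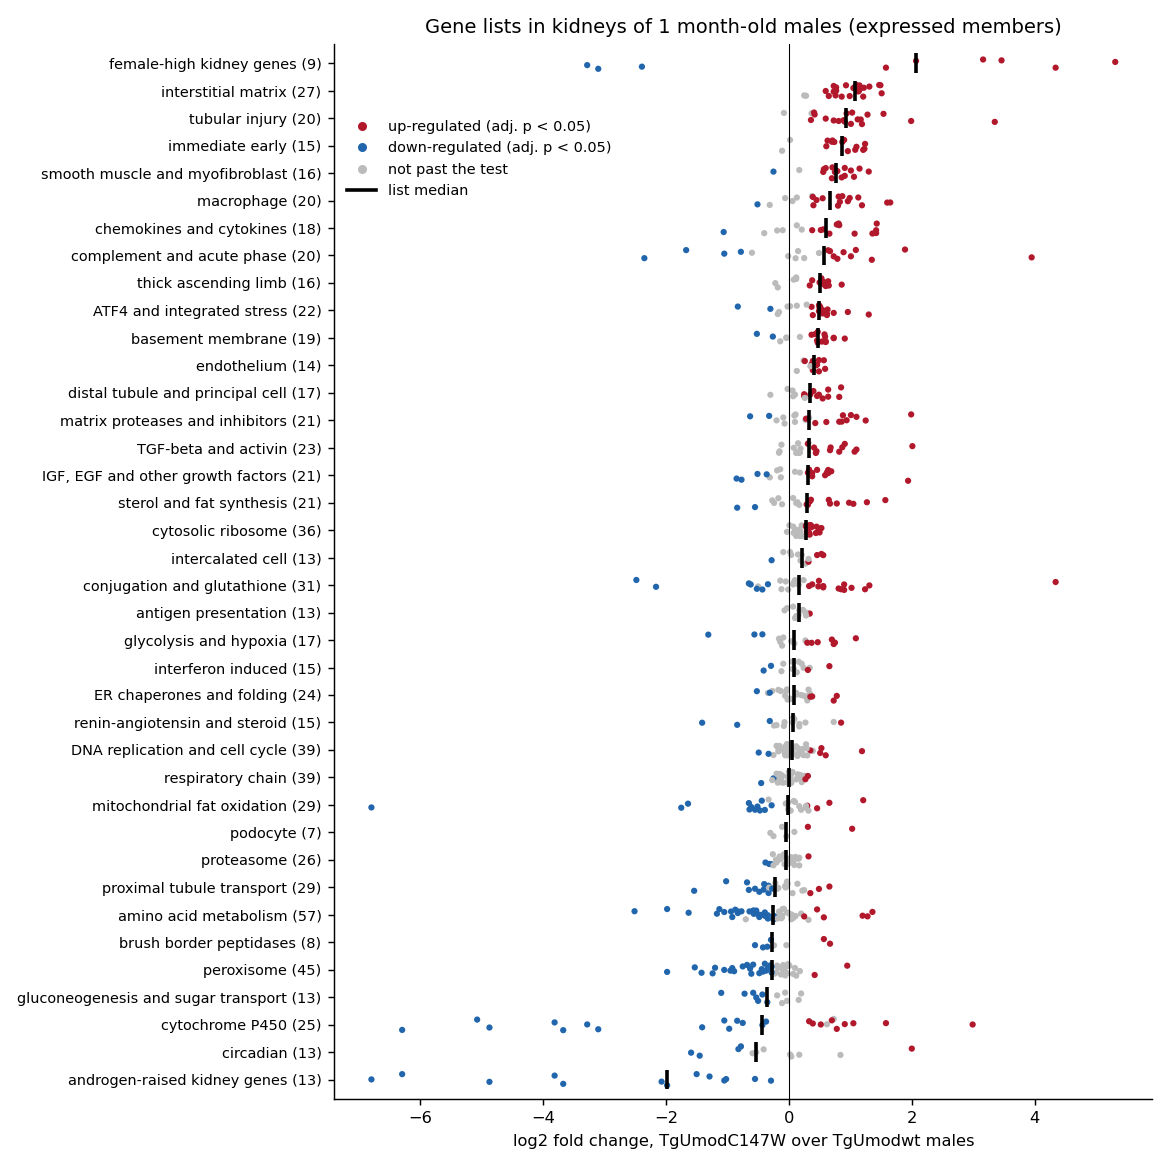
Log2 fold change of C147W males over wt males for each expressed member of the gene lists, ordered by list median; points are genes, coloured by whether they passed the test upward, downward or not, and bars mark medians. Androgen-raised genes lie lowest, with a median of -1.98 and a range of -6.79 to -0.29, and interstitial matrix genes have a median of 1.08.

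Genes of tubular injury were up-regulated in 18 of 20 members (90%), with none down-regulated and a median of 0.93. Lcn2, the iron-carrier protein NGAL, measured 9.38, 8.41, 9.74 and 11.14 in C147W males and 6.80, 6.38, 6.01 and 6.09 in wt males (10.2-fold higher, log2 fold change 3.35 ± 0.44, adjusted p = 0.000215, and 7.88-fold with the 3 undetected wt arrays at their dimmest detected signal). Every C147W male exceeded every wt male, and replicate 4 was the highest of them. Timp1, an inhibitor of matrix metalloproteinases, measured 7.09, 6.97, 7.42 and 8.26 in C147W males and 5.40 to 5.50 in wt males, where it was not detected (at least 1.72-fold higher, means 7.43 in C147W males and 5.44 in wt males, adjusted p = 7.72e-05). Havcr1, the injury receptor KIM-1, measured 7.44, 7.48, 7.58 and 8.57 in C147W males and 6.46, 6.56, 6.34 and 6.58 in wt males (at least 2.16-fold higher, adjusted p = 0.00091). Krt19, a keratin of duct-like epithelium, was detected in 2 of the C147W males and in none of the wt males (at least 1.1-fold higher, adjusted p = 0.00203), and Cdkn1a, the cell cycle inhibitor p21, was 2.28-fold higher (9.74, 9.15, 8.91 and 9.12 in C147W males, 7.80 to 8.47 in wt males, adjusted p = 0.000628). The order of C147W males was not the same from gene to gene: replicate 4 was highest for Lcn2, Timp1 and Havcr1 and replicate 1 for Cdkn1a. Cdkn1a measured 8.86 to 9.69 in C147W females and 9.09 to 9.60 in wt females (genotype-by-sex value 1.18, adjusted p = 0.0165, and 1.24 with adjusted p = 0.0187 without replicate 2). Of the 20 members 2 were called in that test, the other being Cryab, a small heat shock protein not called in males (0.45, adjusted p = 0.0336, and 0.48 with adjusted p = 0.0344 without replicate 2). The list's median in females was 0.88, and 0.77 without replicate 2. Markers of urothelium, which also makes several of the list's keratins, were up-regulated in 5 of 6 expressed genes (83.3%, median 0.53) with none down-regulated, and their summed linear signal was 1420 to 1840 in C147W males and 1120 to 1180 in wt males. They were led by the uroplakins Upk2 (1.64-fold higher, adjusted p = 0.000996) and Upk3b (1.56-fold higher, adjusted p = 0.000156), Upk1a was not called (0.16, adjusted p = 0.23) and Krt5 was not detected. The part of urothelium in the keratin values was not tested.

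Interstitial matrix was up-regulated in 25 of 27 expressed genes (92.6%) and down-regulated in none, with 25 genes free of overlap and a median of 1.08. Col1a1, the alpha-1 chain of type I collagen, measured 10.41, 10.44, 10.62 and 10.94 in C147W males and 9.11, 9.65, 9.55 and 9.44 in wt males (2.24-fold higher, adjusted p = 0.000135). Col6a1, a type VI collagen chain, was 2.11-fold higher (11.53 ± 0.21 in C147W males, 10.46 ± 0.15 in wt males, adjusted p = 6.34e-05). The largest rises were those of Tnc, the injury-induced glycoprotein tenascin-C (2.84-fold, adjusted p = 2.28e-05), Lox, which cross-links collagen (2.81-fold, adjusted p = 0.000243), Mfap5 (2.77-fold, adjusted p = 0.000996) and Mfap2 (2.48-fold, adjusted p = 4.54e-06), both microfibril proteins. The corresponding median in females was 0.77, and 0.64 without replicate 2. Basement membrane genes rose in 13 of 19 and fell in 2. Rises were led by Lama2, a laminin chain (1.88-fold, adjusted p = 9.27e-05), and by Nid1, nidogen, and Ntn4, netrin-4 (each 1.66-fold, adjusted p = 0.00169 and 0.000186), with Col18a1, the source of endostatin, 1.51-fold higher (adjusted p = 0.00399). The 2 that fell were Col4a3 and Col4a4, chains of the collagen IV network of the glomerular basement membrane (1.2-fold and 1.44-fold lower, adjusted p = 0.0286 and 0.000919).

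Smooth muscle and myofibroblast genes rose in 14 of 16 and fell in 1 (median 0.77). Acta2, smooth muscle actin, measured 13.35, 13.24, 13.28 and 13.58 in C147W males and 12.15, 12.06, 11.95 and 12.09 in wt males, and all 4 of its probes were up-regulated (2.46-fold higher, adjusted p = 2.88e-06). Thy1, a fibroblast surface protein, was 2.21-fold higher (7.41, 7.70, 8.30 and 8.79 in C147W males, 6.83 to 7.05 in wt males, adjusted p = 0.00369), Pdgfra, a growth factor receptor of interstitial fibroblasts, 2.08-fold higher (adjusted p = 6.7e-05), Tagln, transgelin, 2.02-fold higher (adjusted p = 7.02e-05) and Vim, vimentin, 1.88-fold higher (adjusted p = 0.000137). Of 21 proteases and inhibitors of the matrix 11 rose and 2 fell, among them Mmp14 and the gelatinase Mmp2 that it activates (2.38-fold and 2.14-fold higher, adjusted p = 7.82e-06 and 3.89e-05). In the TGF-beta and activin family 12 of 23 rose and none fell (median 0.32). Grem1, a secreted antagonist of bone morphogenetic proteins, measured 7.72, 7.95, 6.55 and 6.96 in C147W males and 5.11 to 5.42 in wt males, where it was not detected (at least 1.56-fold higher, adjusted p = 0.000163). Replicates 1 and 2 were the highest C147W males for this gene. The ligand Inhba, detected in 1 C147W male and no wt male, measured 6.21 ± 0.43 in C147W males and 5.11 ± 0.19 in wt males (adjusted p = 0.00107), the activin antagonist Fst was 2.1-fold higher (adjusted p = 0.000137), and Tgfb1 itself 1.33-fold higher (8.30 to 8.81 in C147W males, 7.98 to 8.25 in wt males, adjusted p = 0.0201).

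Macrophage genes rose in 14 of 20 and fell in 1 (median 0.67, 0.97 in females and 0.80 there without replicate 2). Lyz2, macrophage lysozyme, measured 10.40, 10.73, 10.88 and 11.61 in C147W males and 8.99, 9.00, 8.72 and 10.32 in wt males (3.13-fold higher, adjusted p = 0.00309). The probe of its copy Lyz1 gave 11.99, 12.42, 12.54 and 12.90 in C147W males and 10.61, 10.58, 10.39 and 11.89 in wt males (3.02-fold higher, adjusted p = 0.00189), and the signals of these near-identical genes may not be separate. In both genes wt male replicate 4 lay far above the other wt males and just below the lowest C147W male. Ms4a7, a macrophage membrane protein, was detected in all C147W males and in no wt male (at least 1.54-fold higher, adjusted p = 0.000797), and Cd163, a haemoglobin scavenger receptor, in 1 C147W male and no wt male (adjusted p = 0.00279). The member that fell was Fcgr2b, the inhibitory Fc receptor, also made by endothelium (9.34 to 9.45 in C147W males, 9.85 to 9.96 in wt males, 1.42-fold lower, adjusted p = 0.000334). Not called were Adgre1, Csf1r, Cx3cr1, Aif1 and Ctss (log2 fold change 0.38, -0.31, -0.06, 0.06 and 0.13, adjusted p = 0.0805, 0.0702, 0.766, 0.623 and 0.417). Itgam, Itgax, Ccr2, Trem2, Msr1, Fcgr1, Fcer1g and Cd53 were not detected.

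Of 18 expressed chemokines and cytokines 12 rose and 1 fell. The monocyte attractant Ccl12 measured 6.34, 7.29, 7.62 and 8.34 in C147W males and 5.85, 6.37, 5.44 and 6.25 in wt males, which overlapped by 1 array (at least 1.67-fold higher, adjusted p = 0.00933). Ccl9 and Ccl8, also not detected in wt males, were at least 1.67-fold and 1.14-fold higher (adjusted p = 0.000368 and 0.00597). Ccl21a, a lymphatic chemokine whose copies share sequence, was 2.67-fold higher (9.43 ± 0.26 in C147W males, 8.01 ± 0.11 in wt males, adjusted p = 1.42e-05). The T cell attractant Ccl5 measured 6.22 to 6.94 in C147W males, with 2 arrays detecting it, and 5.55 to 6.05 in wt males (adjusted p = 0.00987). Il18, an interleukin of epithelium and macrophages, fell: 5.54 to 6.16 in C147W males, with no detection, and 7.05, 6.98, 6.48 and 7.00 in wt males (at least 1.47-fold lower, adjusted p = 0.000467). Of 11 T cell genes only Cd8b1 was expressed, at 13.07 to 13.46 in C147W males and 13.56 to 13.70 in wt males (1.34-fold lower, adjusted p = 0.00601), while Cd3d, Cd3e, Cd3g, Cd4 and Cd8a, the partner of Cd8b1, were undetected. Of 6 B cell genes 0 were expressed. The pan-leukocyte gene Ptprc was also not detected on any of the 8 arrays. By RT-qPCR the study found robust Ptprc expression in kidneys of this age, so the missing array signal does not show that the transcript was absent.

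Complement and acute phase genes numbered 10 up-regulated and 4 down-regulated of 20. Serpina3n, an acute phase protease inhibitor, measured 8.16, 8.09, 9.30 and 9.88 in C147W males and 6.80 to 7.05 in wt males (3.71-fold higher, adjusted p = 0.00136). C8a, a subunit of the membrane attack complex, was detected in every wt male at 7.59 to 8.23 and in no C147W male (at least 3.04-fold lower, adjusted p = 1.33e-06), and Cd55, which protects cells from complement, was 3.18-fold lower (adjusted p = 9.41e-05). Antigen presentation and interferon-induced genes changed little: 1 of 13 and 2 of 15 rose, below the 21.9% of all genes. The called genes were Psmb8, an immunoproteasome subunit (1.26-fold higher, adjusted p = 0.00734), Ifitm3 and Rsad2, antiviral proteins (1.58-fold and 1.24-fold higher, adjusted p = 0.000711 and 0.0249), and the GTPases Igtp and Irgm1 (1.33-fold and 1.22-fold lower, adjusted p = 0.0217 and 0.0189).

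**Figure D4:**
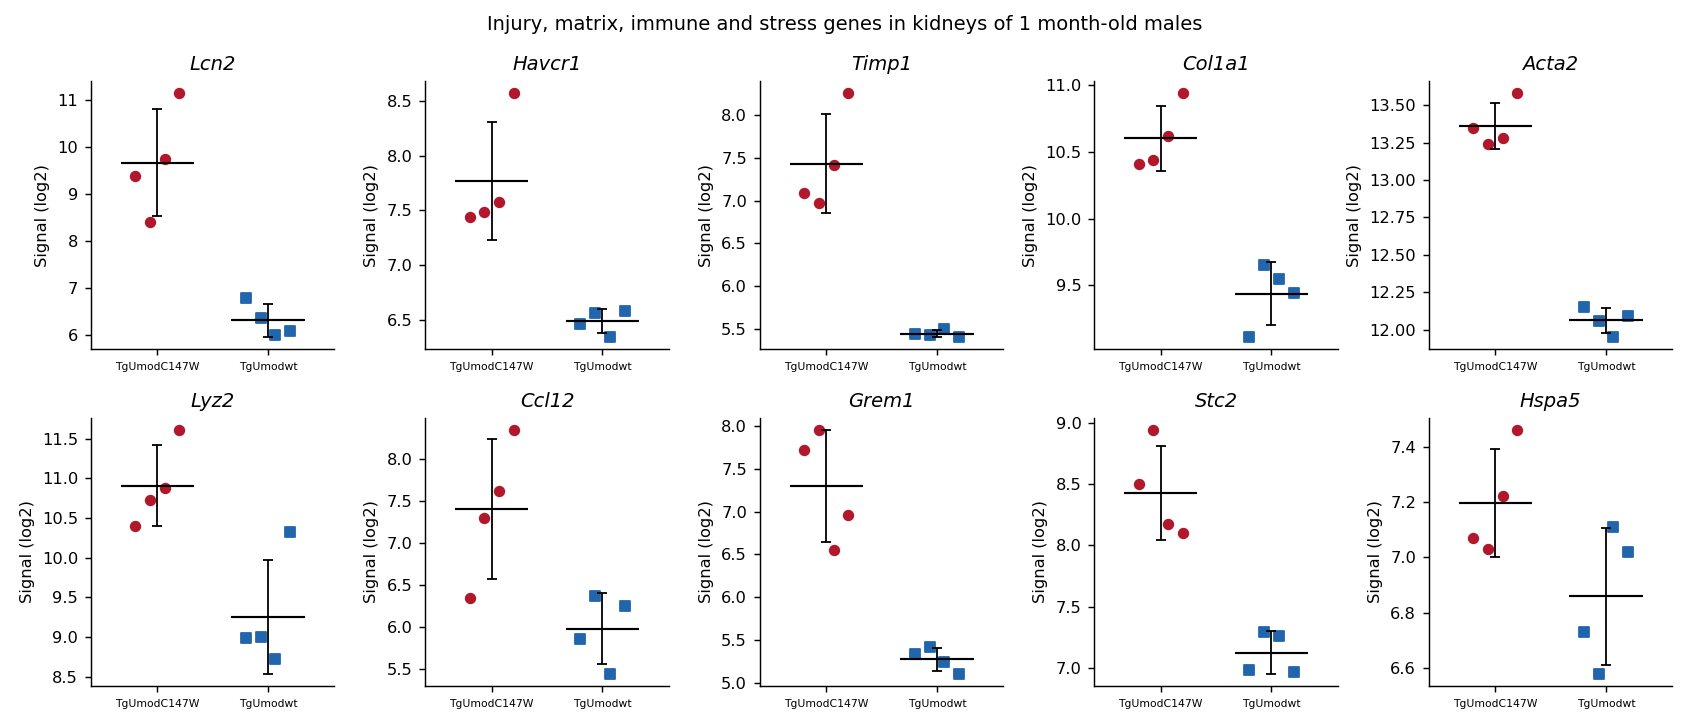
Log2 signal of genes of tubular injury (Lcn2, Havcr1, Timp1), matrix and myofibroblasts (Col1a1, Acta2), macrophages and chemokines (Lyz2, Ccl12) and of Grem1, Stc2 and Hspa5 in the 4 C147W males and the 4 wt males; points are mice, lines are means and bars are the SD. Acta2 lies at 13.24 to 13.58 in C147W males and 11.95 to 12.15 in wt males, whereas Hspa5 overlaps, at 7.03 to 7.46 in C147W males and 6.58 to 7.11 in wt males.

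Since mutant uromodulin is a misfolding-prone secretory protein, ER chaperones were examined as a group of their own. Of 24 expressed members 4 rose and 2 fell (16.7% and 8.33%), both shares below those of all genes, with a median of 0.08. Hspa5, the master ER chaperone BiP, measured 7.07, 7.03, 7.22 and 7.46 in C147W males and 6.73, 6.58, 7.11 and 7.02 in wt males and did not pass the test (log2 fold change 0.34 ± 0.13, adjusted p = 0.0737). Its probe lay near the dimmest detected signals of these arrays (6.24 to 6.74), and 3 of the 4 wt males detected it. In its pathway analysis the study reports limited evidence for a response to unfolded proteins, including ATF4 terms, and only in male mutants. It proposes that whole-kidney RNA may have masked a stress response of TAL cells, which was not tested here. The members that rose were Sdf2l1, part of an ER chaperone complex (1.72-fold, adjusted p = 0.00116), Creld2, a stress-induced ER protein (11.16, 11.16, 11.78 and 11.75 in C147W males, 10.55 to 10.97 in wt males, 1.66-fold, adjusted p = 0.00474), Hyou1, an ER heat shock protein (1.3-fold, adjusted p = 0.0472), and Syvn1, a ubiquitin ligase of ER-associated degradation (log2 fold change 0.35, adjusted p = 0.0327), and those that fell were Edem1 and Sel1l of ER-associated degradation (1.43-fold and 1.24-fold lower, adjusted p = 0.00255 and 0.0179). Genes of the ATF4 arm of the stress response went further, with 14 of 22 up-regulated and 2 down-regulated (median 0.49). Stc2, a secreted glycoprotein induced by ER stress, measured 8.50, 8.94, 8.17 and 8.10 in C147W males and 6.98, 7.29, 7.26 and 6.97 in wt males (2.47-fold higher, adjusted p = 0.000198). Atf4 itself was 1.54-fold higher (12.30, 12.22, 11.73 and 11.88 in C147W males, 11.35 to 11.44 in wt males, adjusted p = 0.00235), Ddit3, the transcription factor CHOP, 1.47-fold higher (adjusted p = 0.0258, groups overlapping), and Atf3 measured 5.52 to 6.33 in C147W males, with detection in 1 of them, and 4.82 to 4.95 in wt males (adjusted p = 0.000666). Aldh1l2, a mitochondrial folate enzyme, was detected in 3 C147W males and no wt male (adjusted p = 0.00556), while Shmt2, the serine hydroxymethyltransferase of the same pathway, fell 1.78-fold (adjusted p = 2.54e-05). The list's median was 0.08 in females, 0.06 without replicate 2, and the genotype-by-sex values of Stc2, Atf4 and Ddit3 were 1.09, 0.81 and 1.02 (adjusted p = 0.0107, 0.0448 and 0.0214, and 1.00, 0.88 and 1.10 without replicate 2, adjusted p = 0.022, 0.0363 and 0.0182), where wt females already lay above wt males.

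Immediate early genes rose in 13 of 15 members (86.7%) with a median of 0.87. Fos measured 7.03, 6.17, 6.39 and 7.30 in C147W males and 5.41 to 5.67 in wt males, without detection (at least 1.05-fold higher, adjusted p = 0.00111). Egr1, Socs3 and Ier3, transcripts induced within minutes by growth factors and cytokines, were 2.34-fold, 2.31-fold and 2.14-fold higher (adjusted p = 0.000394, 0.000599 and 0.00189). Cytosolic ribosomal proteins rose in 19 of 36 and fell in none (median 0.28), by small steps such as the 1.44-fold of Rps16 and the 1.41-fold of Rps3 (adjusted p = 0.00114 and 0.000635). The respiratory chain had 2 of 39 up-regulated and 2 down-regulated (median 0.00), with Cycs, cytochrome c, 1.37-fold lower (adjusted p = 0.00134), and the proteasome 1 of 26 up-regulated and 3 down-regulated.

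DNA replication and cell cycle genes differed more between the wt sexes than between the male genotypes. In males 5 of 39 were up-regulated and 2 down-regulated (median 0.05), among them Cdk1, the mitotic kinase (9.05 ± 0.08 in C147W males, 8.55 ± 0.08 in wt males, 1.42-fold higher, adjusted p = 0.000625). In females the median genotype effect was 0.50 (0.44 without replicate 2), and 30 of the 39 genes were higher or lower in wt males than in wt females (median difference 0.58) but none between C147W males and C147W females (median 0.04, 0.10 without the replicate). Of the 39, 20 were called in the genotype-by-sex test, 14 without replicate 2.

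Genes of the circadian clock split the C147W males. Arntl (BMAL1), the activator at the core of the clock, measured 8.51, 8.45, 6.44 and 7.17 in C147W males and 5.38, 5.83, 5.49 and 5.86 in wt males (at least 1.98-fold higher, means 7.64 in C147W males and 5.64 in wt males, adjusted p = 0.00247). Replicates 1 and 2 of C147W males were highest, replicates 3 and 4 lay between them and the wt males. Npas2, its alternative partner, had the same split and did not pass (6.51, 6.78, 5.10 and 5.19 in C147W males, 4.85 to 5.31 in wt males, adjusted p = 0.0747). The output factor Dbp ran in reverse, with 11.48, 11.76, 12.98 and 12.59 in C147W males and 13.49, 13.72, 13.68 and 13.71 in wt males (2.73-fold lower, adjusted p = 0.00188). Ciart, a clock repressor, measured 6.35, 6.79, 8.15 and 7.62 in C147W males and 8.66 to 8.96 in wt males (3.01-fold lower, adjusted p = 0.00246). Tef, a relative of Dbp, and Nr1d2, a nuclear receptor of the clock, were 1.72-fold and 1.76-fold lower (adjusted p = 0.00209 and 0.00831), and Per3, a period gene, measured 7.37, 7.22, 8.82 and 8.16 in C147W males and 8.53 to 8.76 in wt males (adjusted p = 0.0528). In all of these genes replicates 1 and 2 lay farther from the wt males than replicates 3 and 4. Of 13 expressed clock genes 1 rose and 4 fell.

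In females the clock genes stood the other way round. Arntl measured 6.82 to 7.33 in C147W females and 8.12 to 9.16 in wt females, and Dbp 12.59 to 13.30 in C147W females and 9.74 to 11.79 in wt females. The median genotype effect over the 13 genes was -0.53 in males and 0.73 in females, also without replicate 2, and 10 of the 13 were called in the genotype-by-sex test with and without that array. The values were 3.57 for Arntl, 2.16 for Npas2, -3.29 for Dbp, -2.49 for Ciart, -1.54 for Tef, -1.55 for Nr1d2 and -2.21 for Per3 (adjusted p = 0.000312, 0.008, 0.000814, 0.0072, 8.72e-05, 0.00265 and 0.00159). Without replicate 2 they were 3.51, 2.20, -3.33, -2.53, -1.51, -1.57 and -2.23 in the same order (adjusted p = 0.000867, 0.0127, 0.00166, 0.0119, 0.000281, 0.00506 and 0.00326). These transcripts cycle over the day in kidney, and the hour of sampling is not given in the sources used here.

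**Figure D5:**
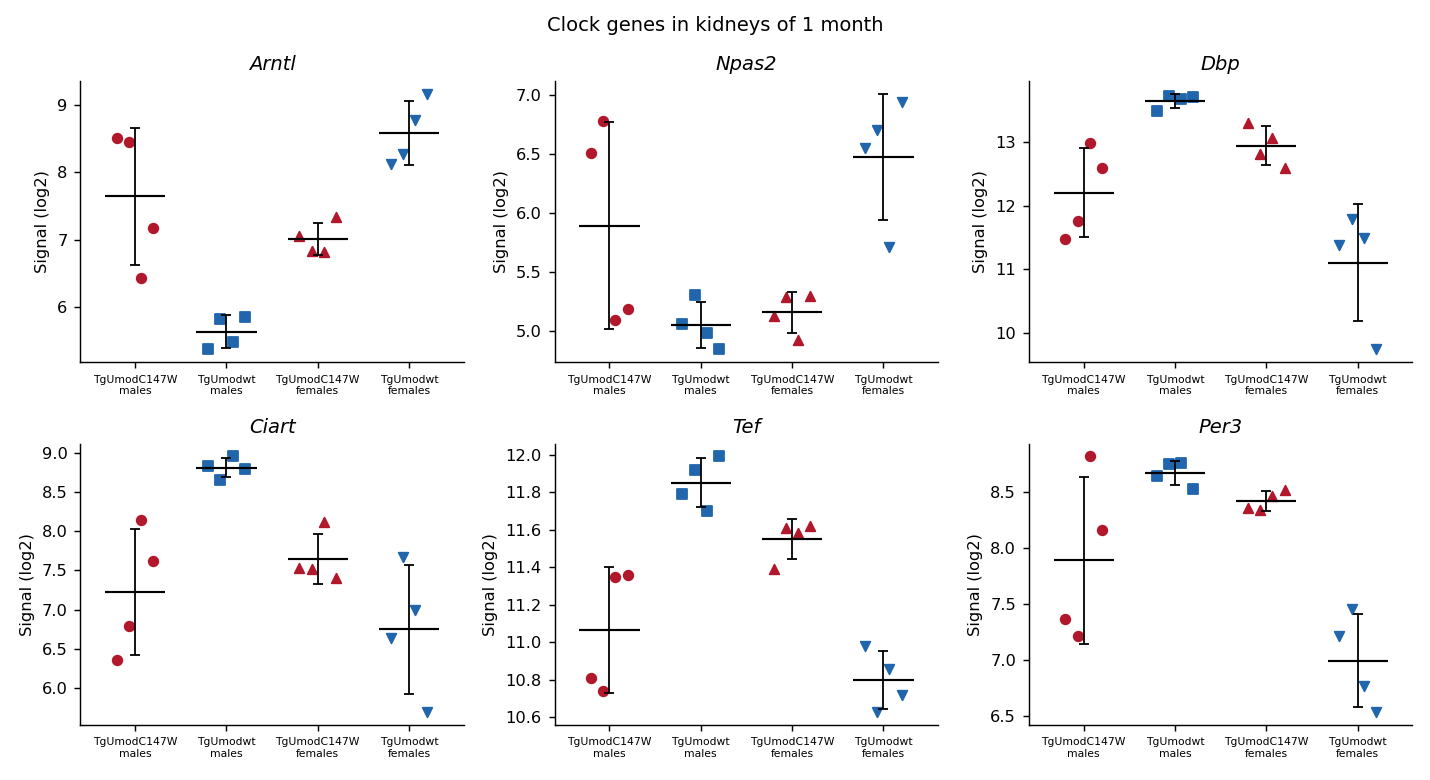
Log2 signal of Arntl, Npas2, Dbp, Ciart, Tef and Per3 in C147W males, wt males, C147W females and wt females of 1 month; points are mice, lines are means and bars are the SD (n = 4 mice each). Arntl is high in 2 C147W males (8.51 and 8.45) and in wt females (8.12 to 9.16) and low in wt males (5.38 to 5.86), and Dbp shows the reverse.

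The E-box CACGTG, the letters that BMAL1 and its partners bind, was found on either strand in the RefSeq promoters (GRCm38.p6, the same windows) of 3 of the 11 expressed clock genes with a promoter in the table (27.3%), against 12% of the 8211 tested genes with one. The matches in Ciart (window chr3:95882179-95882478, minus strand), Tef (windows chr15:81802423-81802722 and chr15:81811164-81811463, plus strand) and Per1 (window chr11:69098699-69098998, plus strand) are shown with the E-box in capitals, since Ciart and Tef were among the genes that fell.
Ciart, position -116: tctagagtCACGTGttgccggt
Ciart, position -58: gggggaggCACGTGcagaaccg
Ciart, position -44: cagaaccgCACGTGtctgggag
Tef, position -127 from the upstream start: tgtggctcCACGTGctgcagct
Tef, position -138 from the downstream start: tggcccagCACGTGtctacatc
Per1, position -166: cccaagtcCACGTGcagggatg
Per1 holds the same letters and had a log2 fold change of 0.17 (adjusted p = 0.759). A match of letters does not show binding.

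Growth factors and hormone-related genes gave single changes. Of 21 genes of the IGF, EGF and other growth factor families 11 rose and 4 fell, with Igf2 the largest. Its binding protein Igfbp2 was 1.61-fold higher with overlapping groups (adjusted p = 0.0416), Ghr, the growth hormone receptor, 1.71-fold lower (12.98 ± 0.22 in C147W males, 13.75 ± 0.08 in wt males, adjusted p = 0.000318), and Pdgfc, a platelet-derived growth factor, 1.8-fold lower (adjusted p = 0.000497). Of 15 genes of the renin-angiotensin and steroid systems 1 rose and 3 fell: Sgk1, the kinase induced by aldosterone, was 1.8-fold higher (13.76, 13.51, 13.72 and 14.26 in C147W males, 12.89 to 13.07 in wt males, adjusted p = 0.00085), whereas Nr3c1, the glucocorticoid receptor, was 1.79-fold lower (adjusted p = 0.000882) and Cyp24a1, which inactivates vitamin D, 2.65-fold lower (9.04, 9.64, 8.86 and 10.14 in C147W males, 10.38 to 11.11 in wt males, adjusted p = 0.00162).

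Of 21 genes for which the study ran RT-qPCR 18 had a named probe, since no probe could be named here for Ccl19, Cyp4b1 and Cd68, and 17 were expressed in males. On the arrays 13 were up-regulated and 3 down-regulated. Some of these genes were picked by the study from these arrays, so the count is not independent of them. Beside those given above, Panx1, a membrane channel, measured 7.50, 7.45, 7.16 and 7.49 in C147W males and 7.02, 7.16, 7.19 and 6.86 in wt males (1.27-fold higher, adjusted p = 0.0268), Fut4, a fucosyltransferase, 7.49 to 7.62 in C147W males and 7.05 to 7.26 in wt males (1.35-fold higher, adjusted p = 0.00139), and Slc13a3, the dicarboxylate transporter, 12.78, 12.83, 13.22 and 13.03 in C147W males and 13.15, 13.26, 13.27 and 13.18 in wt males (log2 fold change -0.25 ± 0.10, adjusted p = 0.0826). The brightest Slc13a3 probe did not pass, while 2 of its 3 expressed probes were down-regulated.

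Markers of liver, fat and adrenal tissue varied among the C147W males. Of 8 liver genes with a named probe 6 were expressed and 3 rose. Their summed linear signal was 2230 to 12100 in C147W males and 1550 to 2060 in wt males. The liver genes Alb and Fgb were not detected, which does not show that their transcripts were absent. Ttr, transthyretin, measured 7.05, 8.57, 10.58 and 7.37 in C147W males and 5.94 to 6.60 in wt males (4.22-fold higher, adjusted p = 0.0203). Apoa1, Apoa2 and Ahsg, plasma proteins of liver, were high in C147W male replicates 3 and 2 (10.26 and 7.54 for Apoa1, 11.38 and 9.23 for Apoa2, 9.75 and 7.76 for Ahsg), lay lower in the other C147W males and did not pass the test (adjusted p = 0.149, 0.113 and 0.131). The antitrypsin genes Serpina1d and Serpina1b were likewise highest in replicate 3, at 11.02 and 11.88, and were called (2.21-fold and 1.86-fold higher, adjusted p = 0.00757 and 0.0247). Serpina10 and Serpina6 were highest in replicate 4. Among 8 adipocyte genes 4 were expressed, with Adipoq, adiponectin, 2.12-fold higher (8.89, 9.86, 9.58 and 8.92 in C147W males, 7.95 to 8.57 in wt males, adjusted p = 0.00305). Pck1, which proximal tubule makes as well, fell as given above, and Lep and Ucp1 were not called (log2 fold change 0.16 and 0.89, adjusted p = 0.532 and 0.275). Among 8 adrenal cortex genes 2 were expressed, with Mrap, the corticotropin receptor's partner, at 6.30, 7.16, 6.63 and 6.09 in C147W males and 5.15 to 5.61 in wt males (adjusted p = 0.00174). Mrap was detected in 2 C147W males and no wt male and, like Adipoq, was highest in C147W male replicate 2. The adrenal genes Cyp11a1, Cyp11b2, Cyp21a1, Star, Mc2r and Nr5a1 were not detected. Of 5 expressed red cell genes Hba-a1 and Hbb-b2, globin chains, were called with overlapping groups (1.25-fold and 1.62-fold higher, adjusted p = 0.0286 and 0.0413), and the other 3 were not. The part of such tissue in the results was not tested.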

How the data were processed

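Whole-kidney RNA was extracted with TRIzol, labelled as biotin-cRNA and hybridised to BeadChips that each hold several arrays; which arrays shared a chip is not given in the sources used here. The authors read the beads in GenomeStudio and deposited a non-normalized table of probe intensity on a linear scale with, per probe and array, a detection p-value against negative controls. A second deposited table holds intensity values that the authors normalized by cubic spline, used here as an alternative. The arrays' number, 4 per group, limits the precision.

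The function neqc of limma 3.58.1 (R 4.3.3) took background, estimated through the detection p-values, from the intensities of the 24 arrays, added an offset of 16, made the arrays' quantiles equal and took log2. A limma fit of the 8 male arrays covered the 19026 probes that at least 1 array detected at p under 0.01, and p-values were adjusted by Benjamini-Hochberg; genotype by sex, the sexes within a genotype and the females' genotypes were fitted together on the 16 arrays of 1 month. A gene's value is its expressed probe with the highest mean. Of 45281 probes, 13666 (30.2%) have IDs that differ between the tables; 34043 probes of 18747 genes were named where both IDs gave the same gene in the mouse gene table of GRCm38.p6, and 3118 tested probes stayed unnamed. Nothing states that the 4 mice of a group came from separate litters. On simulated data (19026 probes of the males' comparison, 50 changed at each fold) the test called 70% of those changed 1.5-fold, 98% at 2.5-fold and 100% at 4-fold and 8-fold.

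Named genes are Umod, sex-check genes, those of the study's RT-qPCR, the 12 largest rises and 12 largest falls without overlap, from each list the 4 called members that changed most (2 members where none was called) and the 5 largest genotype-by-sex values each way. Of the 166 genes of this rule 27 are not reported here, 26 list members and 1 of the largest rises. The samples, gene lists and rules were chosen with earlier results of these data known. Named after their values were seen were Slc12a1, Cyp2e1, Odc1, Kap, Gusb, Cyp2a5, Slc22a7, Adh1, Per1, Hacl1, Hao2, Col4a3, Col4a4, Fcgr2b, Adgre1, Csf1r, Cx3cr1, Aif1, Ctss, Il18, Sel1l, Syvn1, Hspa5, Atf4, Ddit3, Npas2, Tef, Per3, Cyp51, Ttr, Apoa1, Apoa2, Ahsg, Serpina1d, Serpina1b, Adipoq, Mrap, Cldn34c1, Arhgap6, Msl3, Hccs, Prps2, Serpinf2, Ces1e, Kdm5d, Cd8b1, Cryab, Upk1a, Upk2, Upk3b, Lep, Ucp1, Hba-a1 and Hbb-b2. Detection on some arrays only held for further genes beside the cases in the report. In C147W males these were Cyp4a12a, Cyp2d9, Ugt2b36, Cd55, Ciart, Igfbp2, Ucp1, Ccl12, Ccl8, Fos and Apoa2 (3 of 4), Npas2, Lep, Apoa1 and Ahsg (2 of 4) and Nr3c1 (1 of 4). In wt males they were Serpina10, Hspa5, Il18, Vwf and Ucp1 (3 of 4), Ugt1a5 (2 of 4) and Lcn2, Mfap5, Tagln, Igfbp2, Ttr and Apoa2 (1 of 4). No wt male detected Npas2, Lep, Apoa1, Ahsg, Ccl5 or Atf3. Promoters came from RefSeq (GRCm38.p6). Python 3.11.15 was used with scipy 1.17.1, matplotlib 3.10.9, numpy 2.4.6 and pandas 2.3.3; statmod 1.5.0 served limma. Alternatives were the authors' values, no background correction, median scaling, an offset of 50, no filter on dim probes, detection on at least 4 arrays, a trended and robust variance prior, one fit over 24 arrays, the 8 arrays normalized alone, the mean of a gene's probes, a replicate block, unit variance for the components and leaving out each array.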

Additional observations from a re-analysis of the deposited data

Results flagged for a closer look

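A gap from the nearest mouse wider than Dixon's critical share of the group's range was looked for in each group of 4, for 370 groups of named genes, and 26 had one; chance gives about 1 in 20. In C147W males replicate 2 stood apart for Gusb (10.65), Ugt1a5 (11.03), Nid1 (10.30), Ifitm3 (12.22) and Hba-a1 (15.90), replicate 3 for Gstp3 (6.94), Pecr (8.69), Hao2 (11.45), Rps16 (13.65) and Panx1 (7.16), replicate 4 for Cndp2 (9.29) and Havcr1 (8.57), and replicate 1 for Igfbp2 (6.33). In wt males replicate 1 stood apart for Abcc3 (6.25), Ccl8 (5.94) and Dbp (13.49), replicate 2 for Pecr (10.72), Atf3 (4.82), Rps3 (13.15) and Serpina1d (9.12), replicate 3 for Slc17a3 (12.79), Il18 (6.48), Fos (5.67) and Upk1a (7.94), and replicate 4 for Lyz1 (11.89) and Edem1 (7.56).

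The genotype effect of 50 named genes differed between males and females of 1 month (limma, interaction, adjusted p under 0.05). The values are log2 fold changes in males minus those in females. Among P450 and other proximal tubule enzymes they were -6.08 for Cyp2j13, -5.19 for Acsm3, -4.62 for Cyp4a12a, -4.59 for Gstp3, -4.10 for Cyp7b1, -4.03 for Inmt, -3.52 for Ugt2b36, -2.88 for Ugt8a and -2.36 for Cyp2e1. Smaller negative values were -1.82 for Cndp2, -1.65 for Nudt19, -1.15 for Acat1, -0.98 for Acsm2, -0.77 for Ephx2, -0.71 for Odc1, -0.61 for Acox3, -0.59 for Kap, -0.57 for Slc22a6 and -0.43 for Gusb. Positive values were 4.69 for Ly6f, 4.34 for Ugt1a2, 4.26 for Ugt1a5, 3.31 for Hdc, 3.08 for Cyp4a14, 2.56 for Abcc3, 1.87 for Clic6, 1.83 for Spon2, 1.80 for Hacl1, 1.67 for Kynu, 1.44 for Serpina6, 1.39 for Elovl6, 1.32 for Hao2 and 0.79 for Slc7a8. Stress, signalling and other genes gave 1.18 for Cdkn1a, 1.09 for Stc2, 1.02 for Ddit3, 0.81 for Atf4, 0.67 for Ccl21a, 0.55 for Tcf21, 0.45 for Cryab, -0.79 for Il18, -0.75 for Pdgfc and -1.09 for Car9. Clock genes gave 3.57 for Arntl, 2.16 for Npas2, -1.54 for Tef, -1.55 for Nr1d2, -2.21 for Per3, -2.49 for Ciart and -3.29 for Dbp. Without C147W female replicate 2 all 50 were still called.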

How the results depend on the processing

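The 2495 up- and 1923 down-regulated genes of C147W males became 3138 and 1277 under median scaling, where the median over all genes moved to 0.11 and 71.1% of calls were upward, against 56.5%. Over 2-fold, 220 up and 234 down became 82 and 152 with the authors' values, 83 and 153 without background correction and 135 up with an offset of 50, so that the upward share of 48.5% became 35, 35.2 and 41.5% (60.7% under median scaling). Up-regulated genes were 12 for DNA replication under median scaling (5 in the report), 7 for growth factors with no filter on dim probes (11) and 6 for chemokines with detection on at least 4 arrays (12). Genes differing between C147W males and C147W females were 14 with no filter and 40 in one fit over 24 arrays (25), and the first component held 43.4% with probes of unit variance (69.1%). Leaving out single arrays gave 2018 to 2484 genes up and 1541 to 1933 down, 207 to 248 and 233 to 246 of them over 2-fold, 7 to 10 distal tubule and 7 to 10 growth factor genes up, 10 to 100 genes by sex within C147W and a detected-probe difference of 2.74 to 3.15 points (exact permutation p = 0.0571, the smallest that 3 against 4 allow). Of 2020 values of named genes expressed in males under other settings 1973 kept direction and side of the threshold, 25 lost and 19 gained a call, and 3 without a call changed sign under median scaling: Msl3 0.08, Prps2 0.04 and Kdm5d 0.08. With arrays left out, 1403 of 1477 stayed, 60 lost and 9 gained a call, and Kdm5d (-0.19 to 0.16), Prps2 (-0.08 to 0.09) and Hccs (-0.01 in 1 fit), none called, changed sign. Col4a3, Hyou1, Igfbp2, Cldn34c1, Hba-a1, Hbb-b2, Ddit3, Pdk4, Igtp, Panx1, Rsad2, Serpina1b, Sel1l, Ttr, Irgm1, Tgfb1, Hao2 and Adipoq lost their call in at least 1 setting. Genes not called in the report gained a call in some fits: Per3 in 8 of 19, Npas2 in 6 of 18, Slc13a3 in 6 of 19 and Hspa5 in 3 of 19. Ahsg, Apoa1, Apoa2, Ucp1 and Upk1a each gained a call in 1 fit. Same-numbered replicates did not pair (r of their deviations -0.02, -0.01, 0.11 and 0.07, with 2 of 4 best with their own number), and the fit with the replicate block gave 2421 genes up and 1879 down. The causes were not tested. Low signals limit the rest: near background, folds are bounds and changes are understated.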
